A study of Bos taurus with 16 samples.

Results

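Interferon tau (IFNT) shifted the transcriptome of cultured bovine (Bos taurus) luteal cells broadly and mostly by small amounts, in both directions. The comparison described here is the main effect of IFNT across both states of prostaglandin F2 alpha (PGF2A). All 16 of the 16 samples entered it, 8 with IFNT against 8 without, in 4 groups of 4. The groups with IFNT received either 1 ng/mL IFNT alone or that dose together with 10 ng/mL PGF2A. The groups without it were untreated controls and cells given 10 ng/mL PGF2A alone. Corpora lutea were taken on days 10 to 12 of the estrous cycle, and the cells are labelled as a primary mix of luteal steroidogenic cells. Medium with 10 ng/mL LH was common to all groups, controls included, and cells were harvested after 24 hours, with triplicate wells pooled before RNA extraction. Samples carry the numbers 1 to 4 within each group, and no label says whether a number is an animal or a culture, so every p-value reflects the spread among these 16 samples alone. Of 15775 genes in the table, 14106 were tested, namely those reaching 10 normalized counts in 4 or more samples.

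IFNT is the type I interferon that the ruminant conceptus secretes around the time of maternal recognition of pregnancy. Type I interferons bind a receptor of the chains IFNAR1 and IFNAR2, and the kinases JAK1 and TYK2 then activate STAT proteins, which with IRF9 drive interferon-stimulated genes. The corpus luteum makes progesterone from cholesterol under LH, and uterine PGF2A ends its life in cycles without a pregnancy.

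Each sample held 23786067 to 25906276 reads on genes. The first principal component carried 50.7% of the variance and separated all 8 samples with IFNT from all 8 without, while the second (16.7%) set the 4 samples numbered 4 apart from the others. Samples sharing a number deviated together, so the number was a term of the model beside IFNT and PGF2A. The labelled cell type was checked through markers. Transcripts of the steroidogenic markers STAR, CYP11A1 and HSD3B1 were present in all samples, and so were those of fibroblasts, endothelial cells and pericytes. Summed fibroblast markers had medians of 912642 normalized counts with IFNT and 1032527 without. Large luteal cell markers had 27604 and 24284, and small luteal cell markers 5324 and 6644, sums that leave out CYP11A1 and HSD3B1. Such sums do not give shares of cells, so the markers do not settle how pure the cultures were. As a check of the treatment, 49 listed classical interferon-stimulated genes took 2.19 to 3.09% of the reads with IFNT (median 2.67%) and 0.156 to 0.364% without (median 0.233%). Single genes are given as normalized counts, lowest, median and highest over the 8 samples of a side. Changes are log2 values, with IFNT over without, from limma's moderated test across all 14106 genes, with the standard error after ±, and "rose" and "fell" are used only of genes with an adjusted p under 0.05.

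At that threshold 8230 genes changed, 58.3% of those tested. Of these, 4282 fell (30.4% of all genes tested) and 3948 rose (28.0%). The falls were the smaller changes. The median called fall was -0.41 and the median called rise 0.51 on the log2 scale. Among the falls, 1554 (36.3%) were under 1.25-fold and another 1469 (34.3%) lay between 1.25- and 1.5-fold. A fall of 2-fold or more was seen in 323 genes and one of 4-fold or more in 28. The rises reached further, with 366 of 4-fold or more. In all, 5230 calls were under 1.5-fold, 3023 of them falls. Of all 14106 genes, 3445 were lower and 3082 higher with IFNT in all 8 pairs of equal number and PGF2A state, and 3275 of the 4282 fallen genes were among those lower. This share is not independent of the test, which used the same pairs. Each number supplied a pair in both PGF2A states, and the model had no term for an IFNT effect that differs between numbers. In some genes the pairs of a number moved together: MX2 changed by 8.10 and 8.21 for number 1 and by 11.2 and 11.1 for number 4. The p-values and pair counts therefore do not measure how far the IFNT effect varies between numbers. Separation of the sides was less frequent: 793 genes (5.62% of all tested) had every sample with IFNT below every sample without, and 1243 (8.81%) had every one above. Without the number in the model 2844 genes fell and 2843 rose. Of 417 genes chosen for naming, 59 lost their call without it, and this is stated below for only some of them. Which direction had more calls depended on the setting: 4026 genes fell and 4126 rose under TMM scaling, 4120 fell and 4155 rose in edgeR, and 4236 fell and 3983 rose in DESeq2. Scaling by total reads, which moved the median change of all genes to -0.12 from -0.025, raised the falls to 65.1% of the calls, against 52.0% here. Changes of about that size are therefore read relative to the scaling. The shares of the gene lists that follow stand against 30.4% fallen and 28.0% risen among all genes, and no list was tested as a set. Where a list's count of 4 or more moved by over 1.5 times under another scaling, without the number in the model or without the samples of 1 number, the other count is given after it.

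**Figure D1:**
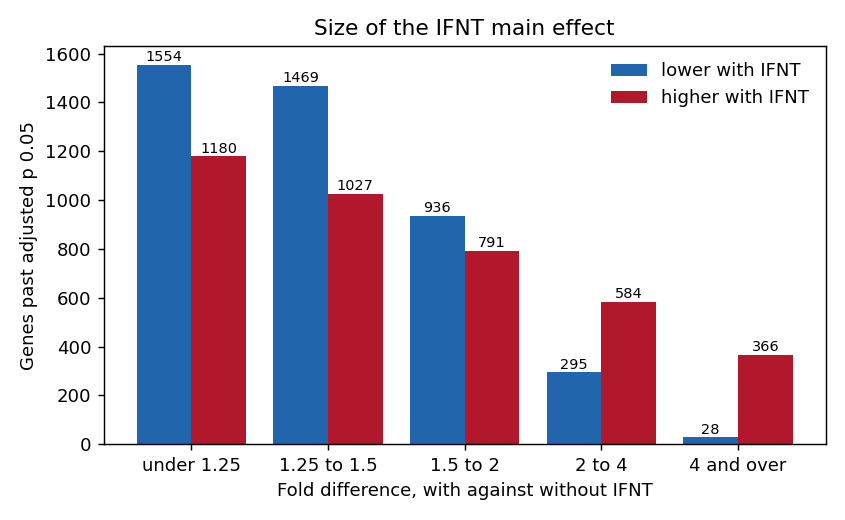
Number of genes (y axis) past an adjusted p of 0.05 by the size of the fold difference (x axis), lower in blue and higher in red with IFNT. Falls outnumber rises below 2-fold (1554 against 1180 under 1.25-fold), and rises outnumber falls at 4-fold and over (366 against 28).

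A difference of the IFNT effect between the PGF2A states was not detected. No gene passed a limma test of the difference between the effects (lowest adjusted p 0.9996), and 216 genes had an unadjusted p under 0.05. Count tests on recovered reads called none either, with 219 genes under an unadjusted p of 0.05 in edgeR and 152 in DESeq2. The effects with and without PGF2A come from separate samples that share their numbers. Across the 14106 genes, which are not independent replicates, they correlated with a Pearson r of 0.955 and a Spearman rho of 0.903. The median absolute difference between the effects was 0.094, and the median standard error of that difference was 0.162. A median below the standard error arises from noise alone, so these values do not show that the effects are equal.

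**Figure D2:**
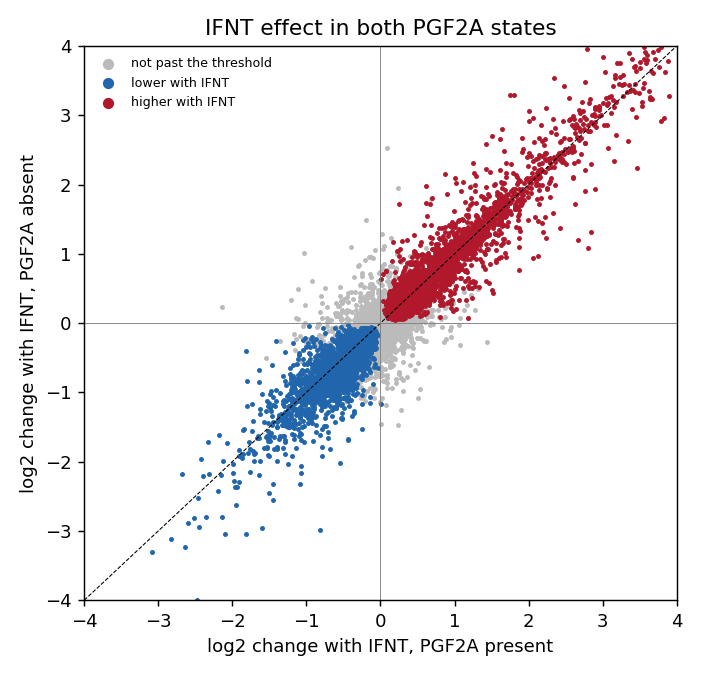
The log2 change with IFNT in the presence of PGF2A (x axis) against that in its absence (y axis) for each tested gene. Blue genes fell and red genes rose in the joint test, grey genes passed neither way, and the dashed line marks equal effects. The axes end at 4, and 115 genes lie outside.

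The 12 deepest falls among genes with a symbol, at least 100 normalized counts on average and 8 of 8 pairs lower were INSYN2A, SAMD11, SCRN1, FGF1, FITM2, SVOP, RIMKLA, IGFBP5, MISP3, SLC25A15, NDRG4 and MTURN. INSYN2A, which encodes a protein of inhibitory synapses, had 58.6, 75.3 and 185 normalized counts with IFNT, against 313, 588 and 1301 without it, a fall of 85.0% (log2 change -2.74 ± 0.14, limma adjusted p 4.94e-10). The groups did not overlap, and number 2 was the highest sample of all 4 groups. FITM2, an endoplasmic reticulum protein needed for lipid droplets to form, had 174, 203 and 264 normalized counts with IFNT, against 671, 824 and 1050.2 without it. All 8 samples with IFNT were below all 8 without, with a log2 change of -2.01 ± 0.085 (adjusted p 6.97e-11, limma) and a spread over the 8 pairs of -2.46 to -1.50. IGFBP5, which binds insulin-like growth factors, had 492, 1116 and 1699.9 normalized counts with IFNT, against 1721, 3622 and 6098 without it. The ranges nearly met, and IGFBP5 fell by 71.2% (-1.80 ± 0.093, limma adjusted p 6.83e-10). SLC25A15, the mitochondrial ornithine carrier, had 96.6, 119 and 148 normalized counts with IFNT, against 355, 384 and 531 without it, with no overlap and a log2 change of -1.78 ± 0.10 (limma adjusted p 1.59e-09). MTURN, known as a factor of neural differentiation in Xenopus, had 410.3, 610.2 and 793 normalized counts with IFNT, against 1621, 2087 and 2481 without it. It too was lower in every sample with IFNT (-1.69 ± 0.081, limma adjusted p 2.71e-10).

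Of the other deep falls, FGF1, a fibroblast growth factor, ranged over 26.5 to 154 normalized counts with IFNT (median 49.1) and 75.7 to 615 without (median 243), so that the groups overlapped (log2 change -2.10 ± 0.14, limma adjusted p 1.23e-08). SAMD11 overlapped as well, at 34.4 to 325 normalized counts with IFNT (median 82.1) and 293 to 864 without (median 351) (-2.24 ± 0.16, limma adjusted p 2.40e-08). The log2 changes of the rest were -2.17 ± 0.11 for SCRN1, a regulator of exocytosis in mast cells, -1.87 ± 0.090 for SVOP, a synaptic vesicle transporter-like protein, -1.87 ± 0.095 for RIMKLA, which joins glutamate to N-acetylaspartate, -1.79 ± 0.077 for MISP3 and -1.69 ± 0.13 for NDRG4. None of these 5 overlapped between sides.

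**Figure D3:**
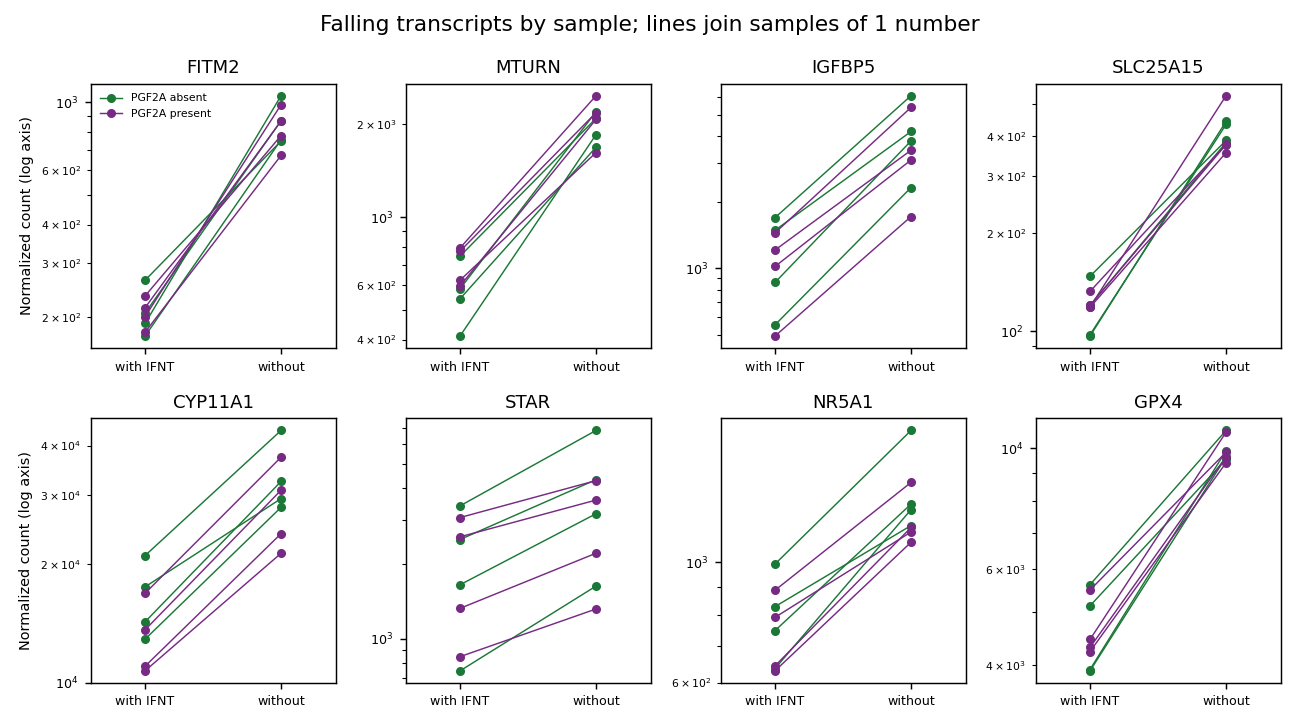
Normalized counts (y axes, logarithmic) of 8 fallen genes in samples with IFNT (left) and without (right), with lines joining samples of equal number, green in the absence and purple in the presence of PGF2A. Every line of these 8 genes slopes upward to the right, and only STAR has overlapping ranges.

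Among falls under 2-fold, the 12 with the smallest adjusted p and the same direction in 8 of 8 pairs came from genes of varied roles. RPS4X, a protein of the small ribosomal subunit, had 8428, 9070.5 and 9994 normalized counts with IFNT, against 14136, 14674 and 16312 without it. Each sample with IFNT was below each without, although the fall was 38.6% (log2 change -0.70 ± 0.035, limma adjusted p 4.00e-10). LAMA1, the laminin alpha 1 chain of basement membranes, had 4300.1, 6362 and 6981 normalized counts with IFNT, against 7750.4, 10705 and 12238 without it, with no overlap either (-0.81 ± 0.035, limma adjusted p 1.03e-10). MBTPS1, the site-1 protease that cleaves SREBP and ATF6 in the Golgi, had 1539.7, 1778 and 1879 normalized counts with IFNT, against 2976, 3178 and 3327 without it, and fell by 45.2% (-0.87 ± 0.047, limma adjusted p 9.59e-10). ESYT2, a tether between endoplasmic reticulum and plasma membrane, fell by 48.9%, and NSD2, which methylates histone H3 at lysine 36, by 45.4%. MRAS, a Ras-family GTPase, fell by 46.6%. The remaining log2 changes were -0.87 ± 0.052 for NDRG3, -0.76 ± 0.046 for the mitochondrial protein FAM210B, -0.79 ± 0.048 for OSBPL6, a relative of oxysterol-binding protein, -0.78 ± 0.047 for the kinesin KIF3C and -0.97 ± 0.060 for the adhesion receptor ADGRA3. The methyltransferase METTL22 had 168, 233 and 334 normalized counts with IFNT, against 334, 443 and 597 without it (limma adjusted p 2.13e-09). Only METTL22, which lies just under 2-fold, had overlapping ranges.

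Genes of steroid production were lower on balance, with some rises among them. In the list of steroidogenic enzymes and partners 13 of 28 tested members fell (46.4%) and 6 rose (21.4%), with a median log2 change of -0.25, while the median of all tested genes was -0.025. Steroidogenic genes had 8 falls without the number in the model. Another scaling moves all genes by about the same amount, and the median was -0.233 under TMM and -0.345 under total-read scaling. CYP11A1, the side-chain cleavage enzyme that turns cholesterol into pregnenolone, had 10717, 13941 and 21016 normalized counts with IFNT, against 21311, 30079 and 43704 without it. The highest sample with IFNT was just below the lowest without, and CYP11A1 fell by 52.3% (-1.07 ± 0.068, limma adjusted p 6.02e-09). STAR, which moves cholesterol into mitochondria, had 745, 2072 and 3405 normalized counts with IFNT, against 1317, 3380.1 and 6824 without it, so the sides overlapped widely. All 8 pairs of STAR were lower, by -1.13 to -0.49 on the log2 scale, and the fall of 41.6% had a limma adjusted p of 1.06e-06 with the number in the model and 0.112 without it. HSD3B1, which makes progesterone from pregnenolone, had 7461, 9979 and 13191 normalized counts with IFNT, against 8776, 14063 and 22386 without it, again overlapping (-0.43 ± 0.076, limma adjusted p 2.24e-04). FDX1, the electron donor of CYP11A1, changed by -0.39 ± 0.057 (limma adjusted p 4.15e-05). SRD5A1, a steroid 5-alpha reductase, changed by -1.25 ± 0.058 and HSD17B1, which makes estradiol from estrone, by -1.22 ± 0.17. The rises included SRD5A3, a polyprenol reductase, at 1.58 ± 0.10 and STARD3, which binds cholesterol at late endosomes, at 0.92 ± 0.066. In bulk RNA, fewer cells of a type and less RNA per cell cannot be told apart. Leaving out 1 number at a time gave 12 to 16 falls.

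Among luteal transcription factors and steroid receptors 10 of 28 tested members fell (35.7%) and 7 rose (25.0%). NR5A1, the nuclear receptor that activates steroidogenic genes, had 631, 769 and 992 normalized counts with IFNT, against 1088, 1208 and 1747 without it, with no overlap and a fall of 39.9% (-0.73 ± 0.058, limma adjusted p 7.29e-08). CEBPA changed by -1.42 ± 0.20, FOXL2, a granulosa cell factor, by -0.78 ± 0.13 and FOXO1 by -0.40 ± 0.059. PGR, the progesterone receptor, had 194, 258 and 309 normalized counts with IFNT, against 87.5, 104 and 127 without it, every sample with IFNT being the higher (1.31 ± 0.067, limma adjusted p 5.52e-10), and NR3C1, the glucocorticoid receptor, rose by 0.50 ± 0.11.

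The receptors for both luteal hormones did not pass the test. LHCGR, the LH receptor, had 572, 937 and 1466 normalized counts with IFNT, against 718, 972 and 1745 without it, the ranges overlapping throughout (-0.16 ± 0.21, limma adjusted p 0.524). PTGFR, the PGF2A receptor, had 269.8, 870.1 and 2196 normalized counts with IFNT, against 355, 562 and 1729.6 without it (0.36 ± 0.21, limma adjusted p 0.163), and passed as a rise once the samples numbered 4 were left out. In the LH receptor and cAMP pathway list 9 of 34 tested members fell (26.5%) and 9 rose (26.5%), shares near those of all genes. The LH and cAMP list had 5 rises without the number in the model. The phosphodiesterase PDE7A changed by -0.98 ± 0.11, PDE8A by -0.25 ± 0.050 and the regulatory kinase subunit PRKAR1A by -0.17 ± 0.033, while the kinase anchor AKAP1 rose by 0.68 ± 0.054 and the exchange factor RAPGEF3 by 1.08 ± 0.092.

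In the prostaglandin list 8 of 24 tested members rose (33.3%) and 7 fell (29.2%). Prostaglandin genes had 4 falls without the number in the model. PTGS2, the inducible cyclooxygenase, had 379.6, 813 and 1998 normalized counts with IFNT, against 713, 1072 and 2844 without it. Its ranges overlapped, the fall was 33.9% (limma adjusted p 1.17e-04), and it did not pass without the number in the model (adjusted p 0.148). PTGES2, a prostaglandin E synthase, changed by -0.81 ± 0.072 and AKR1B1, an aldo-keto reductase with prostaglandin F synthase activity, by -0.44 ± 0.037. PTGIR, the prostacyclin receptor, rose by 1.88 ± 0.27 (1.16 with a pseudocount of 5) and CBR3, a carbonyl reductase, by 1.10 ± 0.077.

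Genes of cholesterol synthesis rose together by modest amounts. Of the list, 17 of 21 tested members rose (81.0%) and the other 4 did not pass, with a median log2 change of 0.46, and 13 rose without the number in the model. Under total-read scaling 15 rose and 2 fell. FDFT1, squalene synthase, had 4607, 7757 and 10970.3 normalized counts with IFNT, against 2773, 4831 and 6848 without it, with overlapping ranges (0.69 ± 0.034, limma adjusted p 3.35e-10). HMGCS1, the HMG-CoA synthase of the pathway, rose by 0.84 ± 0.062, DHCR7, which makes the last reduction to cholesterol, by 0.68 ± 0.044 and SQLE, squalene epoxidase, by 0.56 ± 0.045. The lysosomal lipase LIPA rose by 0.94 ± 0.075, the sterol carrier NPC2 by 0.68 ± 0.049 and the scavenger receptor CD36 by 1.75 ± 0.12. In that list of regulation, uptake and efflux 12 of 28 tested members rose (42.9%) and 7 fell (25.0%), and the fallen members included MBTPS1, above, and OSBPL1A at -0.38 ± 0.088. The cholesterol handling list had 2 falls without the number in the model, 4 falls without the samples numbered 1, and 4 falls without the samples numbered 3.

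Of the lipid droplet and triglyceride genes, 8 of 26 tested members rose (30.8%) and 7 fell (26.9%), again near the shares of all genes. Lipid droplet genes had 4 falls and 3 rises without the number in the model, 11 falls under total-read scaling, 4 falls without the samples numbered 2, 4 falls without the samples numbered 3, and 11 falls without the samples numbered 4. FITM2 carried the deepest fall of the list and the droplet coat protein PLIN3 changed by -0.41 ± 0.068, GPAM, the first acyltransferase of glycerolipid synthesis, by -0.58 ± 0.14. The coat protein PLIN2, in contrast, had 20391, 25019 and 26641 normalized counts with IFNT, against 11704, 15474 and 18900 without it, a rise of 0.67 ± 0.049 (limma adjusted p 2.97e-08).

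Falls were frequent in the genes of energy metabolism, most of them small. In glycolysis 18 of 28 tested members fell (64.3%) and 6 rose (21.4%), with a median of -0.40. Glycolysis genes had 11 falls without the number in the model. LDHA, which makes lactate, had 3636, 8524 and 13815 normalized counts with IFNT, against 6462, 15421 and 26603 without it, and its sides overlapped (a fall of 43.2%, limma adjusted p 1.13e-07). It did not pass without the number in the model (adjusted p 0.0778). PFKM, the muscle form of phosphofructokinase, had 435, 519 and 653 normalized counts with IFNT, against 763, 964 and 1284 without it, and the sides were apart (-0.91 ± 0.058, limma adjusted p 6.72e-09). The platelet form, PFKP, moved the other way at 0.90 ± 0.069, as did the enolase ENO2 at 1.16 ± 0.10. Of the kinases that inhibit pyruvate dehydrogenase, PDK1 changed by -1.21 ± 0.077, PDK2 by -0.79 ± 0.076 and PDK4 by 1.12 ± 0.13. Of the hypoxia-response genes 16 of 28 tested members fell (57.1%) and 3 rose (10.7%), with FAM162A at -0.67 ± 0.089, MXI1 at -0.68 ± 0.065, the histone demethylase KDM4B at -0.47 ± 0.062 and the vasodilator peptide gene ADM at 1.38 ± 0.055. Hypoxia-response genes had 6 falls without the number in the model and 5 rises without the samples numbered 4. Leaving out 1 number at a time gave 17 to 19 glycolysis and 11 to 18 hypoxia-response falls.

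In the TCA cycle list 19 of 31 tested members fell (61.3%) and 3 rose (9.68%), with a median of -0.18. FH, fumarase, had 1727, 1808 and 1967 normalized counts with IFNT, against 2385, 2461 and 2624 without it. The samples with IFNT were all lower, by 26.0% on average (-0.43 ± 0.037, limma adjusted p 1.63e-07). PDHB, a subunit of pyruvate dehydrogenase, had 623, 691 and 775 normalized counts with IFNT, against 974, 1049.6 and 1132 without it (-0.59 ± 0.050, limma adjusted p 1.75e-07), also without overlap. The mitochondrial isocitrate dehydrogenase IDH2 changed by -0.79 ± 0.066 and the cytosolic malic enzyme ME1 by -0.62 ± 0.054.

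The respiratory chain showed the same modest pattern. For complex I 16 of 38 tested members fell (42.1%) and 4 rose (10.5%), and for complexes II to V 19 of 41 tested members fell (46.3%) and 4 rose (9.76%), with medians of -0.14 and -0.12. Complex I genes had 2 rises without the number in the model, 7 rises under TMM scaling, 2 rises under total-read scaling, and 2 rises without the samples numbered 3. Complexes II to V had 2 rises without the number in the model, 2 rises under total-read scaling, 2 rises without the samples numbered 1, and 2 rises without the samples numbered 3. All 19 fallen members of complexes II to V fell by less than 1.5-fold. NDUFS1, the largest subunit of complex I, had 1729.6, 2283 and 2397 normalized counts with IFNT, against 2732, 2966 and 3165 without it, with no overlap (-0.43 ± 0.056, limma adjusted p 1.20e-05). ATP5F1A, the alpha subunit of ATP synthase, had 10637, 11108 and 12404 normalized counts with IFNT, against 12438, 13578 and 13885 without it. This change of -0.25 ± 0.035, a fall of 16.2%, still left every sample with IFNT below every one without (limma adjusted p 2.09e-05). NDUFB4 changed by -0.64 ± 0.066, NDUFB6 by -0.60 ± 0.056, ATP5F1C by -0.33 ± 0.039, ATP5PO by -0.32 ± 0.040 and UQCR11 of complex III by -0.44 ± 0.062. COX7A1, a heart and muscle subunit of cytochrome oxidase, was the largest rise of both lists at 1.66 ± 0.090, and NDUFB10 rose by 0.76 ± 0.075. The medians of the glycolysis, hypoxia, TCA cycle and respiratory chain lists were negative under TMM and total-read scaling too. Another scaling moves all genes by about the same amount, slightly up under TMM and down under total-read scaling, so this is no separate check of the sign. Leaving out the samples of 1 number at a time gave 11 to 23 falls in complex I and 15 to 27 in complexes II to V, the highest counts without number 4. The complex I median was -0.075 without number 1.

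Of the genes of fatty acid oxidation and the peroxisome, 15 of 44 tested members fell (34.1%) and 9 rose (20.5%). Fatty acid oxidation genes had 9 falls without the number in the model. The trifunctional protein subunits HADHB (-0.47 ± 0.037) and HADHA (-0.36 ± 0.036), the very long chain dehydrogenase ACADVL (-0.62 ± 0.056) and the carnitine transferase CPT1B (-1.14 ± 0.11) fell. The medium chain dehydrogenase ACADM rose by 0.83 ± 0.058 and the peroxisomal enzyme EHHADH by 1.14 ± 0.12.

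Cytosolic ribosomal protein genes mostly fell, by small amounts. Of the cytosolic ribosomal protein genes, 52 of 74 tested members fell (70.3%) and 2 rose (2.7%), 48 of the falls were under 1.5-fold, and the median change was -0.23. Together they took 2.86 to 4.03% of the reads with IFNT (median 2.98%) and 3.77 to 4.53% without (median 3.86%). RPS3A, of the small subunit, had 12944, 13442 and 15973 normalized counts with IFNT, against 18977, 19698 and 22615 without it, with the sides apart (-0.53 ± 0.039, limma adjusted p 3.24e-08). RPL7, of the large subunit, had 7893, 9429 and 11193 normalized counts with IFNT, against 13132, 14287 and 16746 without it, likewise apart (-0.63 ± 0.047, limma adjusted p 3.35e-08), and RPS6, the subunit phosphorylated by S6 kinases, changed by -0.58 ± 0.047. The rises were RPS12 at 0.18 ± 0.044 and RPLP1 at 0.16 ± 0.048, neither passed under total-read scaling, RPS12 did not pass without the number in the model, and RPLP1 did not pass without the samples numbered 3. The number of falls was 45 under TMM scaling, 68 under total-read scaling and 37 without the number in the model. It was 69 without the samples numbered 4 and 37, 38 and 40 without those numbered 1, 2 and 3. The median was negative in each of these settings. It was -0.213 under TMM and -0.326 under total-read scaling. Another scaling moves all genes together, so the sign holds only for the scalings tried. Dropping the number from the model leaves the median as it is and does not check the sign. Reads of ribosomal protein genes can also match near-identical processed copies, among which the authors' counting divides them, so single values are uncertain.

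Mitochondrial ribosomal protein genes moved in both directions. Here 32 of 78 tested members fell (41.0%) and 17 rose (21.8%). The falls included MRPS22 at -0.45 ± 0.040, MRPL24 at -0.66 ± 0.062, MRPL18 at -0.52 ± 0.050 and MRPL52 at -0.59 ± 0.057, and the rises MRPL44 at 1.05 ± 0.062, MRPS12 at 0.66 ± 0.068 and MRPL32 at 0.59 ± 0.060. Of the genes of mitochondrial import, chaperones and dynamics 11 of 39 tested members fell (28.2%) and 5 rose (12.8%). The import list had 25 falls under total-read scaling and 19 falls without the samples numbered 4. The chaperone TRAP1 changed by -0.50 ± 0.063, the protease subunit CLPX by -0.53 ± 0.077 and the kinase PINK1 by -0.37 ± 0.049, whereas the fusion protein MFN2 rose by 0.80 ± 0.041.

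The aminoacyl-tRNA synthetases, which charge tRNAs, were divided: 15 of 37 tested members rose (40.5%) and 13 fell (35.1%). Mitochondrial enzymes were among the named falls, with IARS2 at -0.74 ± 0.062, RARS2 at -0.69 ± 0.061 and CARS2 at -0.87 ± 0.078, beside the dual cytosolic enzyme EPRS1 at -0.45 ± 0.044. The tryptophan enzyme WARS1, an interferon-inducible gene, had 28629, 34209 and 37744 normalized counts with IFNT, against 5246, 6220.1 and 7973 without it, and rose by 2.41 ± 0.087. Of the genes supplying serine, glycine and other amino acids 20 of 30 tested members fell (66.7%) and 4 rose (13.3%), with a median of -0.28. Amino acid supply genes had 12 falls without the number in the model. ALDH18A1, the first enzyme of proline synthesis from glutamate, had 1871, 2211 and 2416 normalized counts with IFNT, against 3221, 3452 and 3563 without it, with no overlap (-0.64 ± 0.040, limma adjusted p 4.87e-09). PYCR1, which completes proline synthesis, changed by -0.79 ± 0.093, the aspartate aminotransferase GOT1 by -0.49 ± 0.051 and the alanine aminotransferase GPT2 by -0.64 ± 0.078. The tryptophan-degrading enzyme IDO1 rose by 6.21 ± 0.60, with 7.43 without the samples numbered 1, 5.61 without those numbered 3 and 5.26 in edgeR.

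**Figure D4:**
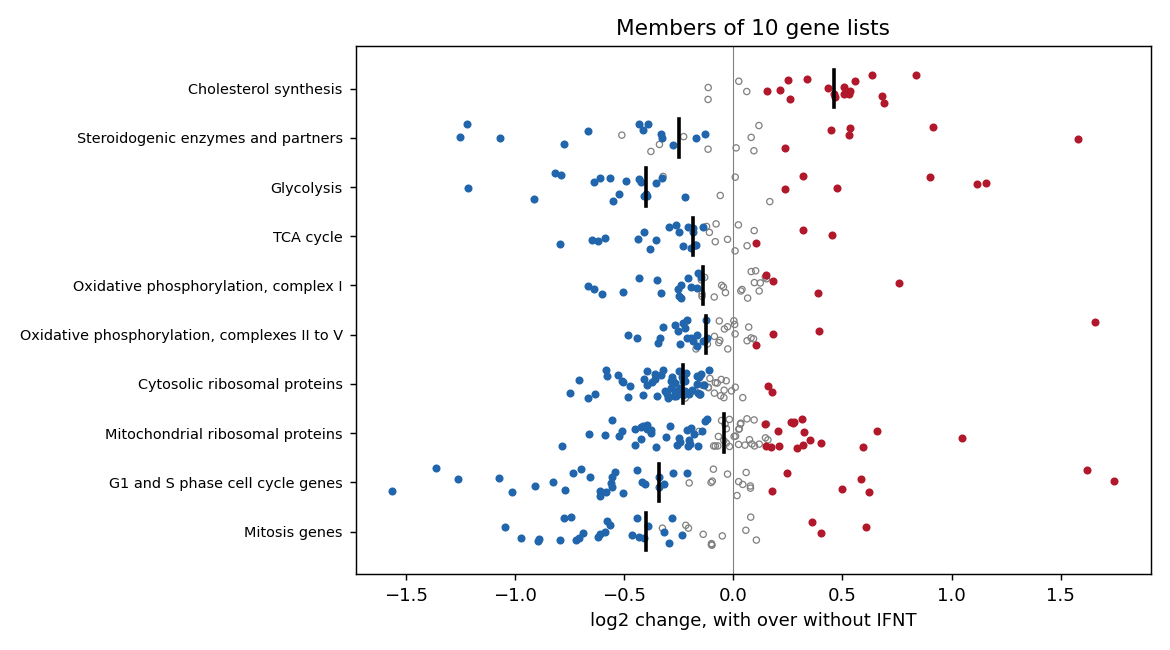
The log2 change with over without IFNT (x axis) of every tested member of 10 gene lists (rows), filled blue or red where the member fell or rose and open where it did not pass, with a black bar at the list's median. Most points of the respiratory chain and cytosolic ribosome lists lie between 0 and -0.75, and cholesterol synthesis has no blue point.

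Cell cycle genes mostly fell, and for those named here as falls the sides overlapped. In the G1 and S phase list 27 of 45 tested members fell (60.0%) and 7 rose (15.6%), and in the mitosis list 24 of 38 tested members fell (63.2%) and 3 rose (7.89%), with medians of -0.34 and -0.40. Mitosis genes had 4 falls without the number in the model and 5 rises without the samples numbered 4. RRM2, the small subunit of ribonucleotide reductase, had 84.0, 188 and 648 normalized counts with IFNT, against 223, 623 and 1524 without it. The ranges overlapped while all pairs were lower by -2.55 to -1.16 (-1.56 ± 0.14, limma adjusted p 3.73e-07). UHRF1, which maintains DNA methylation at replication, changed by -1.36 ± 0.15, thymidylate synthase TYMS by -0.55 ± 0.045 and the replication factor GINS1 by -0.65 ± 0.075. MKI67, the proliferation marker, had 174, 521 and 887 normalized counts with IFNT, against 335, 898 and 2381 without it, with an adjusted p of 1.49e-05 in limma's test and 0.111 without the number in the model. The spindle protein PRC1 changed by -0.89 ± 0.083 and BIRC5, survivin, by -0.69 ± 0.093. Both medians were negative under TMM and total-read scaling too, which move all genes together and are no separate check of the sign. Leaving out 1 number at a time gave 20 to 23 mitosis and 24 to 27 G1 and S phase falls. The cyclin gene CCND1 had 412, 754 and 1238 normalized counts with IFNT, against 399, 606 and 863 without it, a change of 0.25 ± 0.085 (limma adjusted p 0.0232) that did not pass under total-read scaling, without the samples numbered 1, or without either control number 2 or PGF2A number 1 alone. The cyclin kinase inhibitors CDKN2B and CDKN2A rose by 1.62 ± 0.10 and 0.50 ± 0.067.

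Of nucleotide and DNA repair genes 24 of 50 tested members fell (48.0%) and 9 rose (18.0%). DNA repair genes had 11 falls without the number in the model. The DNA ligase LIG1 changed by -0.52 ± 0.056, the ADP-ribose polymerase PARP1 by -0.26 ± 0.032 and the uracil glycosylase UNG by -0.29 ± 0.041. POLH, a translesion polymerase, rose by 1.34 ± 0.061 and XRCC5, the large Ku subunit, by 1.36 ± 0.090. In the list of chromatin modifiers and DNA methylation 19 of 61 tested members fell (31.1%) and 10 rose (16.4%). Chromatin genes had 32 falls under total-read scaling. KDM2B changed by -0.41 ± 0.040, HDAC2 by -0.43 ± 0.050, the methyltransferase DNMT3A by -0.43 ± 0.052 and the demethylase KDM1A by -0.36 ± 0.047, all small and without overlap. The maintenance methyltransferase DNMT1 rose by 0.68 ± 0.055 and the architectural protein HMGA1 by 1.66 ± 0.11.

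Of the antioxidant and glutathione genes, 16 of 50 tested members rose (32.0%) and 15 fell (30.0%), close to the shares of all genes. Antioxidant genes had 9 falls and 10 rises without the number in the model. GPX4, the enzyme that reduces lipid peroxides in membranes, had 3906, 4386 and 5622 normalized counts with IFNT, against 9411, 9749.8 and 10790.2 without it. The sides were far apart, and GPX4 fell by 53.7% (-1.11 ± 0.074, limma adjusted p 9.79e-09). NQO1, a quinone reductase, changed by -0.64 ± 0.043, TXNRD1, thioredoxin reductase, by -0.54 ± 0.055 and PRDX2 by -0.47 ± 0.051. The microsomal glutathione transferase MGST1 rose by 2.30 ± 0.095 and mitochondrial superoxide dismutase SOD2 by 1.14 ± 0.073.

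Among heat shock proteins and chaperones 20 of 41 tested members fell (48.8%) and 7 rose (17.1%), and all 20 falls were under 1.5-fold. Heat shock genes had 6 falls without the number in the model and 13 falls without the samples numbered 3. TCP1, of the chaperonin that folds actin and tubulin, changed by -0.33 ± 0.034 and the co-chaperone DNAJB2 by -0.37 ± 0.051, while DNAJA1 rose by 0.84 ± 0.057. In the unfolded protein response list 13 of 29 tested members rose (44.8%) and 9 fell (31.0%). Unfolded protein genes had 8 rises without the number in the model and 8 rises under total-read scaling. EDEM1 (-0.75 ± 0.067), HERPUD1 (-0.42 ± 0.042) and the ubiquitin ligase SYVN1 (-0.47 ± 0.060), all of endoplasmic reticulum degradation, fell, whereas MANF (1.44 ± 0.083), the chaperone CALR (0.83 ± 0.060) and the factor DDIT3 (0.96 ± 0.071) rose.

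Degradation pathways were mixed. Of the autophagy core genes 17 of 37 tested members fell (45.9%) and 8 rose (21.6%), with WIPI1 at -0.65 ± 0.065, WDR45 at -0.47 ± 0.050, ATG16L2 at -0.48 ± 0.055 and ULK2 at -0.66 ± 0.084 among the falls and the receptors CALCOCO2 (2.31 ± 0.072) and OPTN (0.79 ± 0.048) among the rises. Autophagy genes had 5 rises under total-read scaling. For lysosome and V-ATPase genes 24 of 51 tested members rose (47.1%) and 11 fell (21.6%). Lysosome genes had 7 falls and 13 rises without the number in the model. The lysosomal channel MCOLN1 changed by -0.79 ± 0.067 and the proton pump subunit ATP6V1C1 by -0.52 ± 0.048, and the cathepsins CTSS and CTSL rose by 3.41 ± 0.076 and 1.46 ± 0.080. Of core proteasome subunits 10 of 34 tested members rose (29.4%) and 8 fell (23.5%), with PSMD6 at -0.40 ± 0.035 and PSMA2 at 1.39 ± 0.055. Proteasome subunits had 3 falls without the number in the model, 16 falls under total-read scaling, 5 falls without the samples numbered 2, and 13 falls without the samples numbered 4.

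In the collagen and matrix list 23 of 54 tested members fell (42.6%) and 14 rose (25.9%). Collagen and matrix genes had 13 falls and 4 rises without the number in the model. COL3A1, a fibrillar collagen, had 135653, 218371 and 265151 normalized counts with IFNT, against 217475, 306393 and 390513 without it, overlapping (-0.56 ± 0.052, limma adjusted p 4.60e-07). LUM, lumican, was apart at 59988 to 81394 normalized counts with IFNT (median 68478) and 97935 to 106028 without (median 103812) (-0.60 ± 0.054, limma adjusted p 3.01e-07). COL11A1 changed by -1.10 ± 0.082 and COL15A1 by -0.75 ± 0.065, while the elastin gene ELN rose by 1.37 ± 0.077 and FMOD by 1.32 ± 0.060. Fibroblast markers, which include COL3A1 and LUM, were divided at 4 falls and 4 rises of 8, and their summed level was 536327 to 1230411 normalized counts with IFNT (median 912642) and 748441 to 1367903 without (median 1032527). Their part in the matrix result was not tested. Of proteases and inhibitors of the matrix 14 of 36 tested members rose (38.9%) and 6 fell (16.7%), with ADAM12, a metalloprotease, at -1.23 ± 0.093 and the urokinase gene PLAU at 0.96 ± 0.081. Matrix protease genes had 2 falls and 8 rises without the number in the model, 13 falls under total-read scaling, and 12 falls without the samples numbered 4.

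In the TGF-beta and BMP pathway 12 of 41 tested members fell (29.3%) and 8 rose (19.5%), shares below or near those of all genes. TGF-beta and BMP genes had 7 falls and 5 rises without the number in the model and 13 rises without the samples numbered 4. BMP2, a bone morphogenetic ligand, had 300, 521 and 790.1 normalized counts with IFNT, against 930.2, 1224 and 1821 without it. The sides were apart, and BMP2 fell by 60.4% (-1.34 ± 0.087, limma adjusted p 8.08e-09). INHBB, the beta B subunit of inhibin and activin, changed by -1.04 ± 0.063 and the BMP-responsive factor ID3 by -0.97 ± 0.11, whereas ID1 rose by 0.69 ± 0.069. The FGF, EGF and IGF systems held the deep falls of FGF1 and IGFBP5, and in all 10 of 41 tested members fell (24.4%) and 12 rose (29.3%). IGF2R, the receptor that clears IGF2, changed by -0.38 ± 0.033, and IGFBP3 and the EGF-like ligand BTC rose by 1.39 ± 0.063 and 2.43 ± 0.17. In the Wnt pathway 13 of 41 tested members fell (31.7%) and 12 rose (29.3%), shares near those of all genes. Wnt pathway genes had 8 falls and 7 rises without the number in the model. LGR5, a receptor for R-spondins, had 2.05, 3.92 and 7.10 normalized counts with IFNT, against 24.9, 31.8 and 52.8 without it, and was apart (-2.94 ± 0.24, limma adjusted p 9.91e-08). With a pseudocount of 5 the change of LGR5 was -2.08. The receptor FZD5 changed by -1.06 ± 0.11, the decoy SFRP4 by -1.18 ± 0.13 and the acyltransferase PORCN by -0.70 ± 0.085, and the ligand WNT4 rose by 2.09 ± 0.21.

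In the Notch and Hippo list 13 of 37 tested members rose (35.1%) and 8 fell (21.6%), with TEAD2 at -0.49 ± 0.070 and HES4 at 2.75 ± 0.093. Notch and Hippo genes had 4 falls and 6 rises without the number in the model. Of 32 tested angiogenesis genes 16 rose and 7 fell (21.9%), with 3 falls without the number in the model. VEGFA, the main angiogenic factor of the corpus luteum, had 1072, 1827 and 3020.1 normalized counts with IFNT, against 1342, 2992 and 5386 without it. The sides overlapped, and its fall of 35.4% (limma adjusted p 4.95e-05) did not pass without the number in the model (adjusted p 0.105). THBS2, an inhibitor of vessel growth, changed by -0.79 ± 0.049 and PDGFD by -0.85 ± 0.12, while VEGFC rose by 0.56 ± 0.045. All 12 endothelial markers rose, 8 of them without the number in the model, with CDH5 at 0.83 ± 0.094 and TEK at 1.05 ± 0.097. Their summed level was 13379 to 38093 normalized counts with IFNT (median 30112) and 10635 to 27964 without (median 17925), and their part in the angiogenesis counts was not tested.

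Immediate early genes were split as well, for 13 of 32 tested members rose (40.6%) and 10 fell (31.2%). Immediate early genes had 5 falls without the number in the model. JUND changed by -0.65 ± 0.069, FOSL2 by -0.63 ± 0.082, IER3 by -1.06 ± 0.13 and the nuclear receptor NR4A1 by -0.79 ± 0.092, whereas ZFP36, which destabilizes AU-rich transcripts, rose by 1.16 ± 0.067 and SGK1 by 1.77 ± 0.099.

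Several of the deepest falls belonged to lists of synaptic and ion channel genes. The lists were chosen with earlier results of these data known, so this membership is no separate result. In the list of vesicle exocytosis and synaptic genes 26 of 53 tested members fell (49.1%) and 7 rose (13.2%), with a median of -0.17. Besides INSYN2A and SCRN1, the calcium sensor SYT6 changed by -2.31 ± 0.19 and the syntaxin STX2 by -0.55 ± 0.050, and SV2B rose by 3.76 ± 0.17. In the ion channel list 16 of 41 tested members fell (39.0%) and 12 rose (29.3%). Channel genes had 7 falls and 7 rises without the number in the model and 10 falls without the samples numbered 2. KCNF1, a modulatory potassium channel subunit, had 3.93, 14.3 and 51.3 normalized counts with IFNT, against 73.8, 115 and 296 without it, with the sides apart (-3.20 ± 0.25, limma adjusted p 5.07e-08). The log2 changes of such low genes depend on the pseudocount. The potassium channel KCNJ15 rose by 2.06 ± 0.32.

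For axon guidance ligands and receptors 17 of 47 tested members fell (36.2%) and 13 rose (27.7%), with EPHB4 at -0.54 ± 0.043, PLXNA1 at -0.54 ± 0.063 and SEMA4C at -0.47 ± 0.057. Axon guidance genes had 8 rises without the number in the model. Of tubulins, actins and actin regulators 17 of 44 tested members fell (38.6%) and 9 rose (20.5%). Tubulin and actin genes had 8 falls and 3 rises without the number in the model, 3 rises under total-read scaling, 5 rises without the samples numbered 1, and 5 rises without the samples numbered 3. TUBB3, the neuronal beta tubulin, had 156, 279 and 424 normalized counts with IFNT, against 501, 696 and 1049.7 without it, with the sides apart (-1.38 ± 0.10, limma adjusted p 2.90e-08), and the microtubule destabilizer STMN1 changed by -0.69 ± 0.055. Of junction genes 15 of 33 tested members rose (45.5%) and 7 fell (21.2%), with the cadherin CDH2 at -0.69 ± 0.094 and NECTIN2 at 1.02 ± 0.069. Of integrins 7 of 22 tested members rose (31.8%) and 2 fell (9.09%), with ITGA11 at -0.74 ± 0.099 and ITGA4 at 1.77 ± 0.33. Integrin genes had 4 rises without the number in the model, 4 rises under total-read scaling, and 4 falls without the samples numbered 4.

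Genes of interferon signalling itself rose more often than they fell. In the list of interferon receptors, JAK-STAT, IRF and SOCS genes 19 of 32 tested members rose (59.4%) and 7 fell (21.9%), against 30.4% of all genes fallen, and all 7 falls were under 1.5-fold. The signalling list had 4 falls without the number in the model. TYK2, a kinase of the type I receptor, had 1866, 2198 and 2447 normalized counts with IFNT, against 2492, 2689.7 and 3066 without it, apart in all samples with a fall of 21.3% (-0.34 ± 0.038, limma adjusted p 2.28e-06). SOCS6, of the suppressor family, changed by -0.38 ± 0.066, STAT5B by -0.20 ± 0.039 and IFNGR2, a chain of the type II interferon receptor, by -0.20 ± 0.043. STAT2, in contrast, had 7611, 8837 and 9981 normalized counts with IFNT, against 1329.9, 1728 and 1977 without it (2.41 ± 0.087, limma adjusted p 1.25e-11), and IRF7 rose by 3.49 ± 0.17.

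Antiviral genes were among the largest rises. All 49 tested classical interferon-stimulated genes rose, with a median of 4.06. ISG15, a ubiquitin-like modifier, had 23098, 32821 and 41980.2 normalized counts with IFNT, against 97.4, 444 and 2116 without it (6.25 ± 0.40, limma adjusted p 7.50e-09). The largest rises among genes with a symbol and at least 100 normalized counts on average included MX2 at 8.96 ± 0.39, IFIT3 at 8.48 ± 0.21, PLAC8B at 8.33 ± 0.26 and RSAD2 at 8.28 ± 0.24, and MX1, a dynamin-like antiviral GTPase, rose by 5.58 ± 0.37. Without the samples numbered 4 the changes of MX2 and ISG15 were 8.23 and 5.58. All 18 tested genes of class I presentation and the immunoproteasome rose, among them the peptide transporter TAP1 at 3.33 ± 0.12. Members of the IFIT and class I families resemble each other, and their single values are uncertain. Of inflammatory cytokines, chemokines and adhesion genes 29 of 38 tested members rose (76.3%) and 3 fell (7.89%), with IL6ST, the shared signalling receptor of the IL6 family, as the deepest fall at -0.82 ± 0.15. Of apoptosis genes 16 of 35 tested members rose (45.7%) and 7 fell (20.0%): BMF, a BH3-only inducer of cell death, changed by -1.21 ± 0.23, while CASP4 and FAS rose by 2.25 ± 0.067 and 1.55 ± 0.077.

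By the same rule as for the modest falls, the 8 leading rises under 2-fold were PRPSAP1, EDEM2, TENT4A, FDFT1, SVIL, DAZAP2, ACSS2 and ACOT9. PRPSAP1, which associates with phosphoribosyl pyrophosphate synthetase, had 2642, 2974 and 3295 normalized counts with IFNT, against 1325, 1549 and 1690.5 without it, with no overlap (0.95 ± 0.043, limma adjusted p 1.69e-10). EDEM2, a mannosidase of glycoprotein degradation, had 3298, 3780.1 and 4045 normalized counts with IFNT, against 1729, 1982 and 2138 without it, apart too (0.89 ± 0.043, limma adjusted p 2.78e-10), in contrast to the fall of its relative EDEM1. ACSS2, which makes cytosolic acetyl-CoA from acetate, had 3670.3, 6964 and 10233 normalized counts with IFNT, against 2435, 3859 and 5427 without it, overlapping (0.82 ± 0.041, limma adjusted p 4.25e-10). TENT4A, a noncanonical poly(A) polymerase, rose by 0.86 ± 0.042, the actin-binding protein SVIL by 0.89 ± 0.044, DAZAP2 by 0.75 ± 0.037 and the acyl-CoA thioesterase ACOT9 by 0.88 ± 0.045.

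Summed markers of macrophages, T and NK cells and B cells were low, and their medians were higher with IFNT. Macrophage markers summed to 557 to 837 normalized counts with IFNT (median 750) and 423 to 677 without (median 564), and 4 of 6 tested rose. T and NK cell markers summed to 60.7 to 124 with IFNT (median 96.7) and 30.9 to 74.7 without (median 53.1), and B cell markers to 18.6 to 61.5 with IFNT (median 28.6) and 6.54 to 17.9 without (median 11.2). Both tested T and NK cell markers rose. Of the B cell markers BLNK rose by 4.30 ± 0.44 (1.81 with a pseudocount of 5, 5.03 in edgeR and a higher value in DESeq2). Neutrophil markers summed to 259 to 1010 with IFNT (median 618) and 225 to 820 without (median 536). Red cell markers summed to 44.6 to 1664 with IFNT (median 266) and 91.5 to 4174 without (median 963). Of the tested markers, 2 of 3 for neutrophils rose and 1 of 2 for red cells fell, and none of these passed without the number in the model. Large luteal cell markers summed to 18122 to 52817 with IFNT (median 27604) and 17541 to 44394 without (median 24284), and small luteal cell markers to 3902 to 7151 with IFNT (median 5324) and 4160 to 10375 without (median 6644). The part of cell mixture in any of the gene changes above was not tested.

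**Figure D5:**
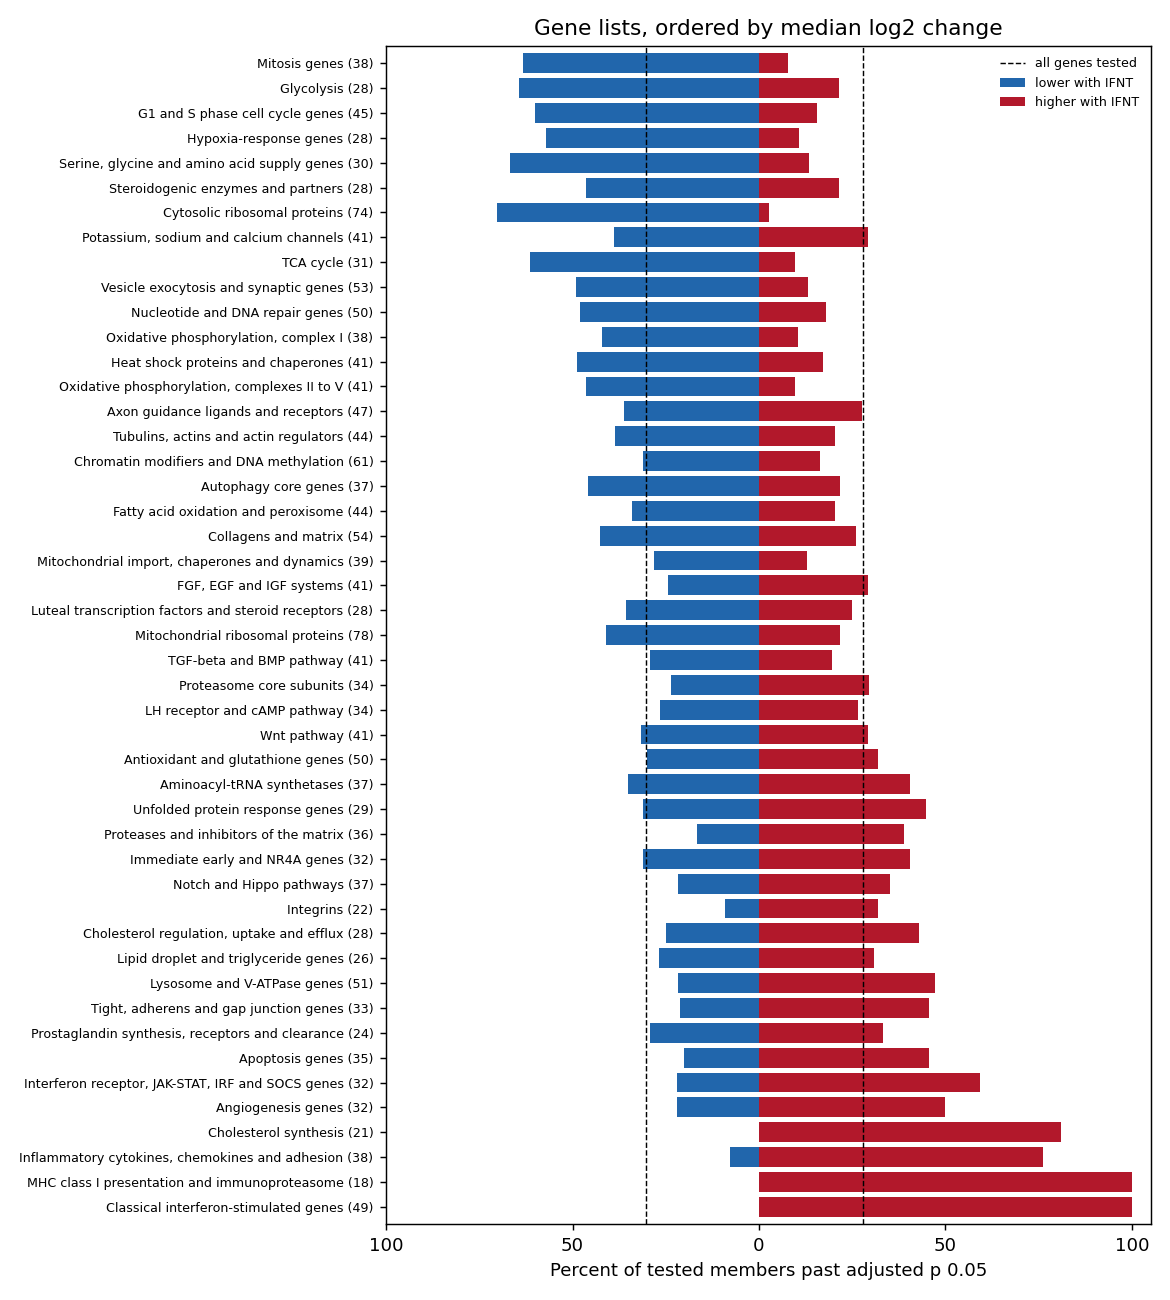
Percent of tested members (x axis) of 47 gene lists (rows, tested members in brackets) that fell (blue, to the left) or rose (red, to the right), ordered by the median log2 change, lowest at the top. Dashed lines mark the shares of all tested genes, 30.4% fallen and 28.0% risen. Cytosolic ribosomal proteins have the longest blue bar, 70.3%.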

How the data were processed

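Messenger RNA was measured in 16 pooled-well cultures as 100 bp read pairs on the DNBSEQ platform. Tools listed in the submitters' processing notes are RSEM 1.2.8, Bowtie2 2.2.5, HISAT2 2.0.4 and, with no version, DESeq2. Genome build, annotation and strand use were not given in the sources used here. RSEM divides a read among all genes it matches, so near-identical copies, overlapping genes and antisense partners are uncertain.

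The values per sample are a deposited signal, read counts divided by the authors with 1 size factor per sample, from their table of the IFNT main effect (15775 genes, scaled on all 16 samples). Once the size factor was undone, 100% of these values were whole reads within 0.02 reads. The depth and the size factors used for this came from the deposited interaction table (18705 genes). The authors' deposited p-values, which come without fold changes, were used for 1 overlap count and for the steroidogenic genes named beside it. Of the gene IDs, 15193 matched RefSeq (assembly ARS-UCD2.0) for names alone.

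Genes with at least 10 normalized counts in at least 4 samples were tested with limma 3.58.1 (R 4.3.3, intensity trend) on log2(normalized count + 0.5), which understates changes of low genes, with terms for IFNT, PGF2A and number and Benjamini-Hochberg adjustment at 0.05. Groups and numbers came from the sample titles. Same-numbered samples deviated together in all 24 pairs (correlation 0.329 to 0.713, against at most 0.0486 between numbers), so the number was kept as a block. The interaction of IFNT and PGF2A was tested in a second model. Alternatives were no block, edgeR 4.0.16 and DESeq2 1.42.0 on recovered reads, other scalings, pseudocounts, filters, no trend and leaving out samples. The fit was tested on simulated data with 200 changed genes and an IFNT effect common to all numbers, where 5.02% of the calls were false. That setting held no IFNT effect that differs between numbers, so it does not give the share of false calls in the real data.

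Members and gene lists were chosen with earlier results of these data known. The named genes were the 12 deepest falls and 5 largest rises with a mean of at least 100, the 12 falls and 8 rises under 2-fold with the smallest adjusted p (all 8 pairs one way, except among the 5 largest rises), up to 4 called members per list and direction, and 15 fixed genes. Some of these genes are not reported here. Intervals from reads cover counting error only, since reads carry no molecular identifiers.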

Additional observations from a re-analysis of the deposited data

Results flagged for a closer look

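In 52 named genes, each of the 4 groups of 4 samples was checked for 1 sample lying far from the other 3 (by Dixon's gap over range), and 8 of 208 groups met this, where chance gives about 1 in 20. Among fallen genes, INSYN2A had 184.6 normalized counts in IFNT number 2, above 58.55 to 65.65 in the other samples of that group. SLC25A15 had 132.5 in IFNT+PGF2A number 2, above 118.4 to 120.1, and 531.2 in PGF2A number 4, above 354.6 to 376.3. LAMA1 had 4300 in IFNT+PGF2A number 3, below 6100 to 6505. MRAS had 3119 in PGF2A number 4, above 2335 to 2373. Among risen genes, TENT4A had 1108 in PGF2A number 1, above 916.9 to 938.4, MX2 had 10.17 in control number 4, below 145.7 to 225.5, and CCND1 had 1238 in IFNT+PGF2A number 2, above 929.6 to 959.1. For some of these genes the sample of the same number also ranked first or last in the other groups: number 2 was the highest of every group for INSYN2A, number 3 the lowest for LAMA1, number 4 the highest for MRAS and number 4 the lowest for MX2. No gene passed the limma test of a difference in the IFNT effect between the PGF2A states.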

How the results depend on the processing

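Under 31 alternatives no gene called in the comparison was called in the opposite direction. Without the replicate block the falls numbered 2844 and the rises 2843, against 4282 and 3948 with it, the calls under 1.5-fold 3027 against 5230, and 59 of 417 named genes did not pass. Beside the block fit, edgeR called 4120 falls and 4155 rises, and DESeq2 4236 and 3983. Under TMM scaling 4026 fell and 4126 rose, and under total-read scaling 5651 fell and 3035 rose. Leaving out all samples of 1 number, or 1 sample, gave 3360 to 4872 falls, 3252 to 4609 rises and 3821 to 6524 calls under 1.5-fold, and no gene differed between PGF2A states at an adjusted p under 0.05 (151 to 535 at an unadjusted one). The upper ends came without the samples numbered 4. The log2 change of LHCGR, not called in any setting, lay between -0.3031 without the samples numbered 3 and 0.0001 without IFNT number 4. Testing the 14122 genes of the interaction table, an alternative chosen after seeing the data, gave 4282 falls and 3954 rises. Depth and the 4 numbers limit what can be said of genes of few reads and of small falls.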

Other observations

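In the authors' deposited table of the IFNT main effect 4824 genes had an adjusted p under 0.05, of which 4710 were among the genes tested here. Of these, 4705 also passed here, 99.9% of the authors' calls tested and 57.2% of the 8230 calls made with the sample number in the model. Among the steroidogenic falls, CYP11A1, FDX1 and NR5A1 were also under 0.05 in the authors' table. STAR and HSD3B1 were not, with deposited adjusted p-values of 0.224 and 0.0851 from the authors' own test.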
